A study of Mus musculus with 38 samples.

Results

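The ERVL-MaLR elements are the mouse repeats of the ORR1, MT and MLT groups. Members were taken by family name and not by their expression, though earlier results of these data were known. Of 1153 TE subfamilies 108 carried the family name ERVL-MaLR, and 454918 of the 3494634 individual TE copies (13.0%) belonged to them. The ORR1 group held 29 subfamilies and 184967 copies, the MT group 20 subfamilies and 185387 copies, and the MLT group 59 subfamilies and 84564 copies. Most copies were LTRs, and the internal parts made up 4.09% (ORR1), 4.17% (MT) and 0.886% (MLT) of all ERVL-MaLR copies. The median copy was 268 bases long, and the longest summed sequence was that of MT (54.1 Mb). The MT2 and MLT2 elements bear similar names but were annotated as ERVL, and they were not included.

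ERVL-MaLRs are old LTR retrotransposons that encode no envelope and no reverse transcriptase of their own, and most copies are single LTRs. An LTR carries a promoter and a polyadenylation signal, and ORR1 and MT LTRs are known to serve as promoters of chimeric transcripts in the mouse oocyte and early embryo. Trim28 is a co-repressor that is brought to TEs by KRAB zinc finger proteins and recruits the H3K9 methyltransferase Setdb1, and young ERVKs such as IAP and MMERVK10C are its best known targets among LTR elements. The question addressed was whether the ERVL-MaLRs respond to loss of Trim28 as other ERVs do.

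The sequences of 7 copies on which the results turn are shown first, and they were read from the RefSeq genome GRCm38.p6 on the strand of the element. The first 3 are ORR1D fragments of one stretch of chromosome 2 that were higher together in Trim28-KO NPCs, at chr2:150196197-150196299 (minus), chr2:150272818-150272912 (minus) and chr2:150467281-150467383 (plus), and capitals mark the bases that differ from the first of them.
ORR1D2_dup1806: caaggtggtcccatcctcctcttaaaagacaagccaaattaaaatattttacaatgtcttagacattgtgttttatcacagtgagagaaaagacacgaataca
ORR1D1_dup2536: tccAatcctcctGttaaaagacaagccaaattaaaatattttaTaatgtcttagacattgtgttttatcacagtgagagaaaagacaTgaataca
ORR1D2_dup1808: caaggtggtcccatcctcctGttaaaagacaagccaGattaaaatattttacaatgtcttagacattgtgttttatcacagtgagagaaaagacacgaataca
The ORR1D1 fragment was 95.8% identical to the first over 95 aligned bases and the other ORR1D2 fragment 98.1% over 103, so reads can map to each of them uniquely only where they reach past these bases or cover a difference.

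The other 4 are LTRs of nearly full length, of which the last 300 bases are given, because 3 of them were called in 2 experiments and the fourth, ORR1B1_dup3694, had the highest fitted log2 fold change in the Emx1-Cre cortex. They lie at chr2:170670901-170671200 (minus), chr17:34002380-34002679 (minus), chr8:124445823-124446122 (plus) and chr4:153631969-153632268 (minus). Capitals mark AATAAA, the letters of the polyadenylation signal, which ORR1B1_dup3694 does not hold.
ORR1A2_dup1858: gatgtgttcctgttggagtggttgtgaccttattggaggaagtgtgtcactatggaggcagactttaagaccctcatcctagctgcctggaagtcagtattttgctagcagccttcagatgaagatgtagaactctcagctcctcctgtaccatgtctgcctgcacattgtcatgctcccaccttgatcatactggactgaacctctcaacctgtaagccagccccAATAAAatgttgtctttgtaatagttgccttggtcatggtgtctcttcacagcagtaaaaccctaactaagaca
ORR1D1_dup19822: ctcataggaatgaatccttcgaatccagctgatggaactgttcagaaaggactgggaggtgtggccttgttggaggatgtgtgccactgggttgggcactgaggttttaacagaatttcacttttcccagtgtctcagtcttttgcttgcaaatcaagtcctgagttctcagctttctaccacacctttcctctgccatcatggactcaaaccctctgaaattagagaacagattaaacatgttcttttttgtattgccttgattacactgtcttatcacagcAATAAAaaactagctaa
MTD_dup23688: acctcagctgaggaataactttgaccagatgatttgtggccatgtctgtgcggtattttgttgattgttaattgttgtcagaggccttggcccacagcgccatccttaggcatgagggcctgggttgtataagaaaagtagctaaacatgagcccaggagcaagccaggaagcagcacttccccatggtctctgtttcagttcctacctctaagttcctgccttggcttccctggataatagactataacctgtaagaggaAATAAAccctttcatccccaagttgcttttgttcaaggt
ORR1B1_dup3694: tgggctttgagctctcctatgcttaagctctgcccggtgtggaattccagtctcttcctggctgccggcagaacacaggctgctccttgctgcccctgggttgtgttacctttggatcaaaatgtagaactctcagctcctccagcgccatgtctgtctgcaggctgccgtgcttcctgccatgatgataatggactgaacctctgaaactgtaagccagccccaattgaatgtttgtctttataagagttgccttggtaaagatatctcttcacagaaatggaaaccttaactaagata
Among all ERVL-MaLR copies of 300 to 400 bases, 36.1% held AATAAA on their own strand and 9.77% on the opposite strand. The share on the own strand was 8.28% for ORR1A2, 24.7% for ORR1D1, 28.5% for ORR1B1 and 39.1% for MTD. Of the copies of this length that were called in any experiment, 13 of 31 (41.9%) held it. A match of these letters is a description of the sequence and not a measured polyadenylation site.

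Bulk RNA-seq of 5 mouse experiments was compared, with 32 libraries in all. The NPCs were embryonic forebrain cultures of Rosa26-Cas9 knock-in mice, transduced with lentiviral gRNAs against exon 3, 4 or 13 of Trim28 (6 Trim28-KO cultures, 2 for each guide) or against lacZ (2 controls) and sorted for a nuclear RFP reporter after 10 days. Adult Cas9-GFP knock-in mice, and Stop-Cas9-GFP mice in which Cas9 requires Cre, received AAV vectors with gRNAs, and RFP-positive nuclei were sorted. In each, the same gRNAs gave 4 Trim28-KO libraries (of g3, g4, g13 and all 3 together) and the lacZ gRNA 1 control. RFP was driven by a Synapsin promoter in the Cas9-GFP mice. In the Stop-Cas9-GFP mice Cre came from a Synapsin promoter and RFP was Cre-inducible. Adult Trim28-flox mice (+/- and +/+) were co-injected with AAV vectors for Cre or nuclear GFP, driven by a Synapsin promoter, and GFP-positive nuclei were sorted. The study gives +/+ as the Trim28-KO genotype. Here 4 libraries were labelled Trim28-KO and 4 labelled control, and the labels do not give the genotype. By the study, the vectors of all 3 experiments with sorted nuclei were injected into the adult forebrain. Its methods give the striatum for Cas9 knock-in mice, which were sacrificed after 2 months. The region and the kinds of neurons sorted can therefore differ from those of the cortex. In the Emx1-Cre cross, cortex was taken at 3 months from 3 animals with both Trim28 alleles excised (Trim28-KO) and 3 controls. By the study's methods the controls had 1 allele excised and so also carried a deletion, while a figure legend calls them Cre-negative. The labels do not say which holds. Emx1-Cre acts in dorsal forebrain progenitors and their descendants, so the cortex also held cells that keep Trim28. In bulk samples fewer expressing cells and less RNA per cell cannot be told apart.

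Libraries held 8790346 to 25345083 gene counts and 310446 to 1766812 TE counts, of which 21373 to 162504 fell on ERVL-MaLR subfamilies. Trim28 transcript in counts-per-million (CPM, scaled by the gene counts) was lower in Trim28-KO NPCs (51.3 ± 14.5, SD, n = 6) than in controls (181 ± 33.4, n = 2; log2 fold change -1.82 ± 0.25, SE, adjusted p = 0.0310, edgeR) and lower in the Emx1-Cre Trim28-KO cortex (7.83 ± 1.52, n = 3, against 20.4 ± 1.28, n = 3; -1.39 ± 0.15, adjusted p = 0.000378). It did not pass the test in the Cas9-GFP (log2 fold change -0.51, adjusted p = 0.415) or Stop-Cas9-GFP nuclei (-0.0026, adjusted p = 1.00), each with 1 control. A transcript with an indel need not be lost. In the Trim28-flox experiment it went against the labels. The 4 libraries labelled Trim28-KO had 136 ± 7.41 CPM and the 4 labelled control 28.4 ± 2.46 CPM (log2 fold change 2.26 ± 0.10, adjusted p = 2.74e-06), so directions in that experiment are given by label only. Trim28 was the only member of a list of 28 silencing genes that was called in any experiment. Of 8 lists of cell type markers, the neural progenitor list had 1 called gene, Fabp7, higher in Emx1-Cre Trim28-KO, and no other list had any. Summed neural progenitor markers were 3300 to 6645 CPM in Trim28-KO NPCs and 5196 to 6300 CPM in their controls, against at most 146 CPM in the other experiments, and summed neuron markers were 1581 to 8181 CPM in the 4 brain experiments. Summed oligodendrocyte progenitor markers did not overlap between Trim28-KO NPCs (31.2 to 105 CPM) and controls (133 to 134 CPM). In the Emx1-Cre cortex the summed oligodendrocyte markers (1694 to 1903 against 2113 to 2281 CPM), endothelial and fibroblast markers (27.1 to 39.8 against 44.9 to 48.2 CPM) and neural progenitor markers (116 to 146 against 92.8 to 99.5 CPM) did not overlap between Trim28-KO and control, and their part in the results below was not tested. Astrocyte markers (565 to 681 against 655 to 815 CPM) and microglia markers (170 to 227 against 176 to 221 CPM) overlapped there. Summed microglia markers did not overlap by label in Trim28-flox (31.3 to 37.2 against 38.7 to 41.6 CPM). The single Cas9-GFP control lay above the Trim28-KO range for neuron (2628 against 2281 to 2485 CPM) and astrocyte markers (52.1 against 30.8 to 50.1 CPM). It was also above it for endothelial and fibroblast (10.5 against 2.38 to 5.05 CPM) and oocyte markers (1.96 against 0.177 to 1.56 CPM). For microglia markers it was below (24.1 against 26.9 to 42.2 CPM). A single control can lie outside the range of 4 libraries without a difference between groups, and the part of these was not tested either. Of 4 oocyte markers only Gdf9 passed the filter, in NPCs, Cas9-GFP and Trim28-flox, and it was not called. No oocyte marker passed it in Stop-Cas9-GFP or the Emx1-Cre cortex.

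The summed level of all ERVL-MaLR subfamilies did not pass the test in any experiment. It was expressed as TEtranscripts counts in CPM of the gene counts, and the 2 NPC controls had 1803 and 1889, while the 6 Trim28-KO cultures spanned 1846 to 2533. All but the lowest Trim28-KO culture were above both controls, and the difference in mean log2 was 0.25 (exact permutation test, two-sided, p = 0.143; smallest possible p = 0.0357). The test does not use the 2 series of culture numbers, and within each series all 3 Trim28-KO cultures were above their own control (2242, 2462 and 2533 against 1889, and 1846, 2058 and 2063 against 1803). In the Emx1-Cre cortex the controls had 1966, 1991 and 2003 and the Trim28-KO animals 1571, 2054 and 2073, with a difference of -0.08 (exact permutation p = 1.00, smallest possible 0.100). The Trim28-KO animals lay on both sides of the controls. The Cas9-GFP control had 5029 and the 4 Trim28-KO libraries 6175 to 6770 (0.37, exact permutation p = 0.200, the smallest that 1 control allows). The Stop-Cas9-GFP control had 7105 and its Trim28-KO libraries 6616 to 8786 (0.03, exact permutation p = 0.80). In the Trim28-flox experiment the libraries labelled control spanned 5078 to 8572 and those labelled Trim28-KO 5499 to 7977 (0.08, exact permutation p = 0.60). One library labelled control, trim28fl_822, held the highest value, and without it the difference was 0.26. Levels were higher in the sorted nuclei than in NPCs and cortex, and the cells, the RNA fraction and the preparation differ together between these experiments. As a share of all TE counts the order differed. ERVL-MaLRs took 8.32% to 8.97% of TE counts in the Trim28-KO cortex and 9.17% to 9.58% in its controls, without overlap (exact permutation p = 0.100, the smallest possible). In NPCs the share was 5.17% to 5.84% in Trim28-KO and 5.73% to 5.92% in controls, a difference in mean log2 of -0.06 that is opposite in sign to that over gene counts. Over all libraries the share was 5.17% to 9.87%. Within them ORR1 took 39.4% to 43.7%, MT 44.9% to 51.0% and MLT 7.91% to 12.4%.

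**Figure D1:**
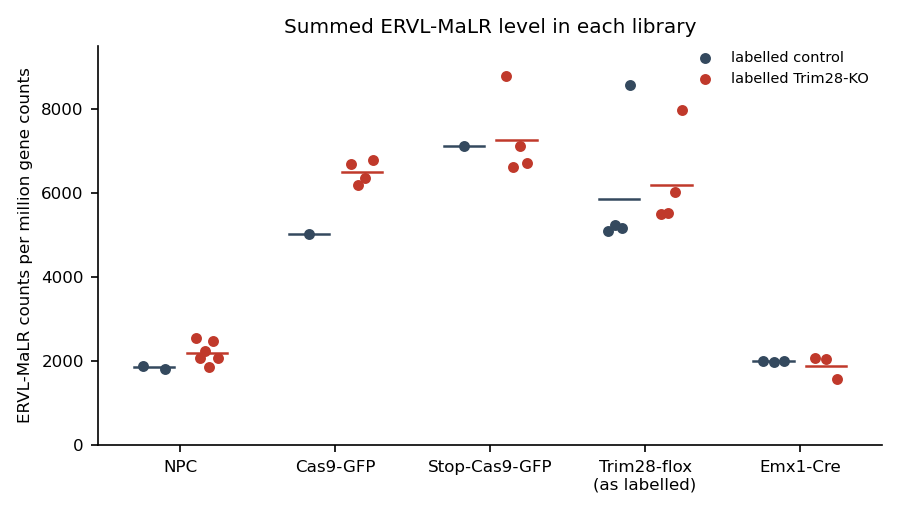
Summed ERVL-MaLR subfamily counts in CPM of the gene counts (y axis) in each library of the 5 experiments (x axis). Points are libraries, dark for labelled control and red for labelled Trim28-KO, and lines are geometric means. NPC and Emx1-Cre libraries lie between 1571 and 2533 and the sorted nuclei between 5029 and 8786, and in each experiment with more than 1 control the groups overlap.

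The other ERV and LINE families were set against the ERVL-MaLRs within each library, so that the ratio does not depend on depth. In the Emx1-Cre cortex the log2 ratio of summed ERVK to summed ERVL-MaLR counts was 0.34 to 0.38 in the controls and 0.81 to 0.96 in Trim28-KO, and the groups did not overlap. The difference of 0.51 had the smallest p that 3 against 3 allows (exact permutation test, two-sided, p = 0.100; adjusted over 10 measures 0.50). In NPCs the ratio was 0.44 and 0.64 in the controls and 0.69 to 1.10 in Trim28-KO, with a difference of 0.30 (exact permutation p = 0.0714, adjusted 0.238), although all 6 cultures were above both controls. The L1 ratio differed by 0.10 in both NPCs (exact permutation p = 0.107) and cortex (p = 0.50), and the ratio of ERVL, the related family that ERVL-MaLRs are named after, by 0.04 (p = 0.786) and -0.08 (p = 0.200). In the nuclei the ERVK ratio differed by 0.04 (Cas9-GFP, exact permutation p = 0.400), 0.07 (Stop-Cas9-GFP, p = 0.60) and 0.03 (Trim28-flox, p = 0.771). One ratio reached a raw p under 0.05: L1 to ERVL-MaLR was lower in the libraries labelled Trim28-KO of the Trim28-flox experiment (difference -0.21, exact permutation p = 0.0286, the smallest possible; adjusted 0.286).

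At the level of subfamilies 0 of the ERVL-MaLRs passed both thresholds (adjusted p under 0.05 and log2 fold change above 0.5 in either direction, edgeR) in any of the 5 experiments. In NPCs 84 of the 108 were tested and 2 had an unadjusted p under 0.05, where 1% of all TE subfamilies were called. Of the 108, 81 were tested in the Emx1-Cre cortex and 5 had an unadjusted p under 0.05, where 3.92% of all TE subfamilies were called. In Cas9-GFP 94 were tested (7 with p under 0.05, 0% of all TE subfamilies called), in Stop-Cas9-GFP 94 (4 and 0%) and in Trim28-flox 88 (1 and 0%). DESeq2 called 1 in NPCs and 0 in the other 4 experiments. With library sizes taken from the gene counts, 1 was called in NPCs and 3 in Cas9-GFP, all higher, where the median of all TE subfamilies moved up by 0.292 and 0.357 (log2). The median log2 fold change of the ERVL-MaLR subfamilies tested lay between -0.03 and 0.02 in all 5 experiments.

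The change nearest to the threshold was that of ORR1F-int, the internal part of one of the older ORR1 elements, in NPCs. Its count in the 6 Trim28-KO cultures was 17 at the lowest, 30 at the median and 61 at the highest, and 7 and 10 in the controls, and the groups did not overlap. Its log2 fold change was 1.91 ± 0.44 (SE; adjusted p = 0.0999, edgeR), and it was the 1 subfamily that DESeq2 called there (adjusted p = 0.00790), as did edgeR with gene library sizes (adjusted p = 0.0128) and without the g13 culture npc_ko_g13_851 (adjusted p = 0.0461). Over all alternatives its adjusted p ranged from 0.00790 to 0.589, the highest without npc_ctrl_842. MLT1H2 followed with 0.69 ± 0.28 (adjusted p = 0.515). Among subfamilies of the Emx1-Cre cortex the smallest p belonged to MTEb, an MT LTR, with 1303 to 1385 CPM of TE counts in Trim28-KO and 1084 to 1171 in controls (log2 fold change 0.27 ± 0.08, adjusted p = 0.125). MTE2a (0.17 ± 0.07) had the same direction, and MLT1G (-0.36 ± 0.14), MTB_Mm (-0.21 ± 0.08) and MLT1H (-0.37 ± 0.17) the opposite one, all with adjusted p of at least 0.316. In Cas9-GFP the smallest p was that of ORR1B2-int (-1.20 ± 0.35, adjusted p = 0.255), followed by MLT1E, MLT1J, MLT1E3 and MLT1I (adjusted p 0.268 to 0.357), and in Stop-Cas9-GFP that of ORR1A0-int (-0.50 ± 0.17) followed by MTA_Mm-int, MLT1J1, MLT1H and ORR1D-int (adjusted p = 0.999 for all 5). In Trim28-flox MLT1D-int, MLT1E2, MLT1F2, MLT1H1 and MLT1O had the smallest p, each with adjusted p = 1.00.

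The subfamily of each group with the highest mean count over all 32 libraries gave narrow estimates. In the controls of NPCs and cortex MTA_Mm-int, ORR1B1 and MLT1A1 had higher levels (CPM of TE counts) than these. ORR1A2 differed by -0.00089 ± 0.09 (log2 fold change, SE) in NPCs and 0.08 ± 0.07 in the Emx1-Cre cortex, MTD by -0.04 ± 0.06 and 0.01 ± 0.07, and MLT1D by -0.01 ± 0.09 and 0.12 ± 0.12. In the 3 experiments with sorted nuclei the same 3 subfamilies lay between -0.18 and 0.17.

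**Figure D2:**
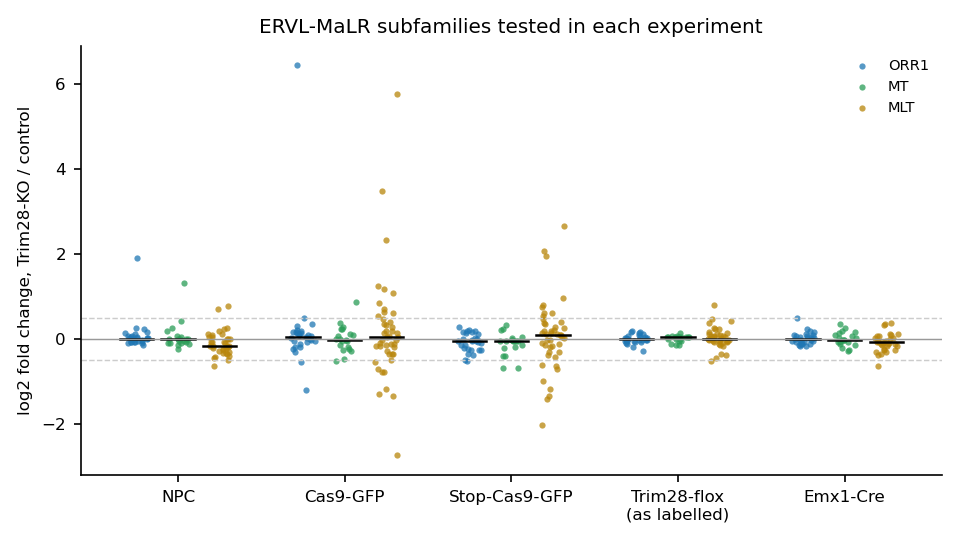
Log2 fold change of Trim28-KO over control (y axis) for each ERVL-MaLR subfamily tested in the 5 experiments (x axis), coloured by group, with black lines for medians and dashed lines at 0.5 and -0.5. Medians of the groups lie close to 0, and the widest scatter is that of the MLT subfamilies in the 2 experiments with 1 control. The highest point in NPCs is ORR1F-int at 1.91.

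Levels between subfamilies were compared per length, as CPM of TE counts per Mb of annotated sequence in controls. ORR1A0-int was among the 2 highest of the 108 in every experiment, at 2592 in NPCs, 2477 in Cas9-GFP, 2536 in Stop-Cas9-GFP, 3806 in Trim28-flox and 5954 in the Emx1-Cre cortex. MTA_Mm-int, the internal part of the youngest MT element, had 1961 in NPCs and 4758 in the cortex. Summed over a group, internal parts of MT (1019 in NPCs, 1950 in the cortex) and ORR1 (725 and 940.0) were above their LTRs (MT 428 and 634, ORR1 385 and 659), and this order held in all 5 experiments. MLT internal parts were below MLT LTRs in NPCs (246 against 354), Stop-Cas9-GFP (355 against 379) and cortex (432 against 549) and above them in Cas9-GFP (429 against 369) and Trim28-flox (421 against 390).

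Individual copies were counted from uniquely mapped reads, unlike the subfamilies. In Trim28-KO NPCs 18 of 2851 copies tested (0.631%) were called higher and 0 lower, where 0.55% of all TE copies tested were called higher and 0% lower (edgeR, adjusted over all TE copies). With a block for the 2 runs of culture numbers, 33 were called, and DESeq2 called 28. The calls rested on both controls, as 7 were made without npc_ctrl_842 and 6 without npc_ctrl_867. Of 1238 copies tested in the Emx1-Cre cortex 34 (2.75%) were called higher, where 2.48% of all copies were, and 3 (0.242%) lower, where 0.25% were. With every copy of at least 10 counts tested 98 were called in the cortex, and among copies that overlap no exon 22. The share of ERVL-MaLR copies called was thus near that of all TE copies in both. Of ERVK copies 2.54% were called higher in NPCs and 8.49% in the cortex, and of L1 copies 1.49% and 3.42%. By group, 10 of the NPC copies were ORR1 (0.842% of those tested), 3 MT (0.247%) and 5 MLT (1.12%). The median log2 fold change over the ERVL-MaLR copies tested was 0.19 in NPCs (0.20 over all TE copies) and 0.01 in the cortex (0.00). In the 3 other experiments 18 (Cas9-GFP), 0 (Stop-Cas9-GFP) and 0 (Trim28-flox) were called, as described last.

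**Figure D3:**
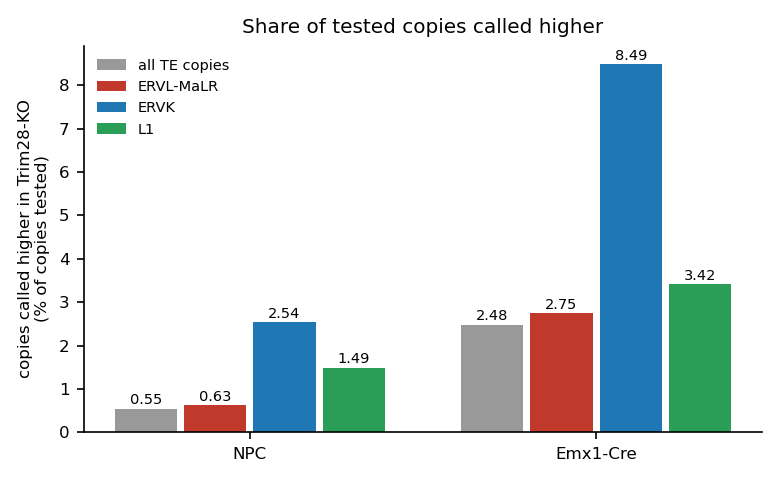
Share of tested copies called higher in Trim28-KO (y axis, percent) in NPCs and Emx1-Cre cortex for all TE copies, ERVL-MaLR, ERVK and L1 copies. ERVL-MaLR bars (0.63% and 2.75%) stand beside those of all TE copies (0.55% and 2.48%) and below those of ERVK (2.54% and 8.49%).

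In NPCs 11 of the 18 copies (61.1%) lay between genes, against 15.2% of the copies tested, 5 lay in exons and 2 in introns. The 3 ORR1D fragments of chromosome 2 shown above were a set of like sequences. ORR1D2_dup1806 had 23, 35 and 52 counts (lowest, median and highest of 6 Trim28-KO cultures) and 0 and 1 in the controls, a ratio of counts of 88.8 with a 95% interval of 15.8 to 3524 (exact binomial, counting error only; adjusted p = 0.000666). ORR1D1_dup2536 had 22, 29 and 38 against 1 and 1 (ratio 34.9, 9.53 to 291; adjusted p = 0.000849). ORR1D2_dup1808 had 17, 20 and 28 against 0 and 0 and was at least 8.65-fold higher, with a floor of 3 counts in each control library (adjusted p = 0.00124). Each of the 3 lay within 0.1 kb of a called Lx2B2 copy, an L1 fragment, and within 10 kb of called ERVK and L1 copies. The genes nearest to the first and second, Gm14139 (log2 fold change 6.16, adjusted p = 0.00361) and Gm14124 (4.47, adjusted p = 0.00403), were called higher as well.

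The copies ORR1E_dup12336, ORR1E_dup12337 and MLT1A0_dup5412 lay at 1 locus on chromosome 9 near Ky, a gene of muscle maintenance. ORR1E_dup12336 had 11, 19.5 and 47 counts against 0 and 0 (at least 9.27-fold; adjusted p = 0.00556), ORR1E_dup12337 had 6, 13.5 and 35 against 0 and 0 (at least 5.51-fold; adjusted p = 0.0213) and MLT1A0_dup5412 had 4, 8 and 16 against 0 and 0 (at least 3.35-fold; adjusted p = 0.0498, lost in all 7 fits without 1 library in which it was tested). Ky itself did not pass the test (log2 fold change 1.83, adjusted p = 0.438). A called copy of L1, MIR or B4 lay within 10 kb of each of these.

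ORR1A0-int_dup375, the longest of the called NPC copies (1681 bases, chromosome 13), had 15, 28 and 52 counts against 0 and 0 (at least 11.6-fold; adjusted p = 0.00124), with 7 called copies of ERVK, ERV1 and L1 within 10 kb. The vomeronasal receptor gene Vmn1r210, 4.33 kb away, was called higher too (log2 fold change 8.57, adjusted p = 0.00361). MTC-int_dup1202 in an exon of BC048671 (at least 4.90-fold, adjusted p = 0.0473, lost in 6 of 8 fits without 1 library) and ORR1D2_dup1324 in an intron of the formin gene Fmnl2 (at least 4.48-fold, adjusted p = 0.0128) were at 0 in both controls. Fmnl2 itself had a log2 fold change of -0.08 (adjusted p = 1.00).

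The NPC copy with the most counts was MTC_dup25893, in an intron of the testis gene Stpg4. It had 73, 448 and 644 counts in Trim28-KO and 9 and 16 in the controls (log2 fold change 5.41 ± 0.84, adjusted p = 0.00694), and the lowest value was that of 1 of the 2 g3 cultures. Stpg4 had a log2 fold change of 5.30 (adjusted p = 0.180). The other called copies in exons were MLT1J_dup2156 in Gm19554, MTE2b_dup4396 in the interferon-inducible GTPase gene Gbp9, and MLT1E2_dup1733 and MLT1E2-int_dup33 in the protocadherin gene Pcdhb22, with log2 fold changes of 1.81 to 1.92. Gm19554 (1.92, adjusted p = 0.0115) and Gbp9 (1.82, adjusted p = 0.0187) were called with their copies, and Pcdhb22 was not (1.59, adjusted p = 0.0785).

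In the Emx1-Cre cortex, 16 of the 34 higher copies (47.1%) lay between genes, against 28.7% of the copies tested, 14 in exons and 4 in introns. The gene was itself called higher for all 14 copies in exons and 3 of the 4 in introns, so the counts of these copies and of their genes cannot be told apart. MTE2a_dup3933 and MTEa_dup5123 lay in exons of the lncRNA gene Gm13016. MTE2a_dup3933 had 221, 212 and 166 counts in Trim28-KO and 13, 7 and 10 in controls (log2 fold change 4.78 ± 0.22, adjusted p = 3.98e-16). MTEa_dup5123 had 46, 52 and 57 against 6, 3 and 0 (4.55 ± 0.42, adjusted p = 2.12e-09). No library of one group reached the other, and Gm13016 moved with them (4.77, adjusted p = 1.24e-07).

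A cluster of 4 copies on chromosome 9, ORR1E_dup11854, MLT1A_dup2446, MLT1A_dup2447 and MTD_dup24572, lay in the lncRNA gene 2900052N01Rik. ORR1E_dup11854 had 521, 764 and 617 counts against 302, 194 and 226 (log2 fold change 1.90 ± 0.17, adjusted p = 9.14e-10), the highest counts of any called copy, and the 4 copies lay between 1.71 and 2.05. 2900052N01Rik had 1.84 (adjusted p = 2.75e-06). ORR1E_dup11224, a fragment of 61 bases in an intron of the oxidoreductase and tumour suppressor gene Wwox, had 373, 352 and 332 against 52, 39 and 33 (3.58 ± 0.19, adjusted p = 6.91e-15), and it abutted a called IAPLTR1a_Mm copy. Wwox was called higher by less (2.10, adjusted p = 5.20e-07).

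Between genes, ORR1B1_dup3694 had 46, 53 and 34 counts against 0, 0 and 0 (at least 19.9-fold; adjusted p = 2.60e-11), 149 kb from the nearest gene, Ajap1, and 7.32 kb from a called L1 copy. ORR1B1_dup4522 and MTEb_dup3584 lay next to each other on chromosome 5, 37.9 kb from the synaptic pentraxin gene Nptx2. ORR1B1_dup4522 had 52, 42 and 41 against 4, 0 and 4 (log2 fold change 4.49 ± 0.41, adjusted p = 1.53e-09), while Nptx2 had 0.01 (adjusted p = 0.999). MTEb_dup4234, in an intron of the organic anion transporter gene Slco1a5, had 15, 12 and 13 against 0, 0 and 0 (at least 6.17-fold; adjusted p = 3.08e-06), and Slco1a5 was called higher (4.98, adjusted p = 0.000143). MTB_dup5990 (12, 15 and 11 counts against 0, 0 and 0; at least 5.75-fold) and MTB_dup5991 (17, 31 and 22 against 1, 0 and 0; ratio 96.7, interval 16.8 to 3872) were neighbours on 1 chromosome. MTD_dup25152, in an intron of the myosin gene Myo1e, had 11 counts in each Trim28-KO animal and 1, 0 and 0 in controls (ratio 45.6, interval 7.63 to 1854; adjusted p = 3.47e-05), and Myo1e did not pass the test (0.09, adjusted p = 0.980).

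The 3 copies called lower in the cortex were MTEa_dup19698, ORR1D1_dup10475 and MTA_Mm-int_dup401. MTEa_dup19698, opposite to an exon of the retinoic acid enzyme gene Aldh1a1, had 124, 154 and 46 counts against 397, 226 and 193 (-0.89 ± 0.20, adjusted p = 0.00650), and Aldh1a1 was called lower by the same amount (-0.95, adjusted p = 0.0362). ORR1D1_dup10475 had 19, 8 and 17 against 79, 24 and 52 (-1.29 ± 0.33, adjusted p = 0.0216). MTA_Mm-int_dup401, in an intron of the formin gene Fmn1, had 9, 10 and 2 against 30, 25 and 20 (-1.38 ± 0.38, adjusted p = 0.0415), and Fmn1 had -0.20 (adjusted p = 0.736). DESeq2 called none of these 3 (adjusted p 0.0895 to 0.571), and each was lost without the first control.

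The copies called higher in both NPCs and cortex were 3, which is 16.7% of the 18 NPC copies and 8.11% of the 37 cortex copies called. ORR1A2_dup1858, 8.44 kb from Gm14264, had 35, 62 and 77 counts in the 6 Trim28-KO NPC cultures and 1 and 0 in their controls (ratio 143, interval 25.4 to 5645; adjusted p = 0.000239). In the cortex it had 21, 32 and 18 against 0, 0 and 0 (at least 10.5-fold; adjusted p = 1.30e-08). It had 0 counts in all Cas9-GFP and Stop-Cas9-GFP libraries and 2 in all in Trim28-flox. The called ERVK copy RLTR34B_MM_dup64 lay 2.18 kb from it in both experiments.

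ORR1D1_dup19822, 2.03 kb from the class I MHC gene H2-K1, had 9, 19.5 and 33 counts in NPCs against 0 and 0 (at least 7.73-fold; adjusted p = 0.00166) and 31, 34 and 14 in the cortex against 3, 1 and 1 (ratio 21.8, interval 8.97 to 69.1; adjusted p = 5.10e-08). H2-K1 passed the test in neither (log2 fold changes -0.28 and -0.25). In Trim28-flox both label groups had counts there (1 to 14 and 4 to 14). The call of MLT1E2-int_dup33 in NPCs was the least stable of the 3, as it was lost in 5 of 8 fits without 1 library (adjusted p up to 0.734) and with library sizes of the TE copies (adjusted p = 0.0555). This copy in Pcdhb22 had 29, 58.5 and 100 counts in NPCs against 18 and 22 (1.82 ± 0.37, adjusted p = 0.0431) and 41, 39 and 20 in the cortex against 21, 19 and 17 (1.25 ± 0.28, adjusted p = 0.00443). In counts the third Trim28-KO animal lay among the controls of the cortex, whose libraries were deeper.

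Most copies called in one of the 2 experiments could not be compared with the other, since they were too low there. Of the 18 NPC copies 6 passed the filter in the cortex and 4 of these had a higher fitted level, and of the 34 cortex copies 6 passed in NPCs and 5 of these were higher.

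**Figure D4:**
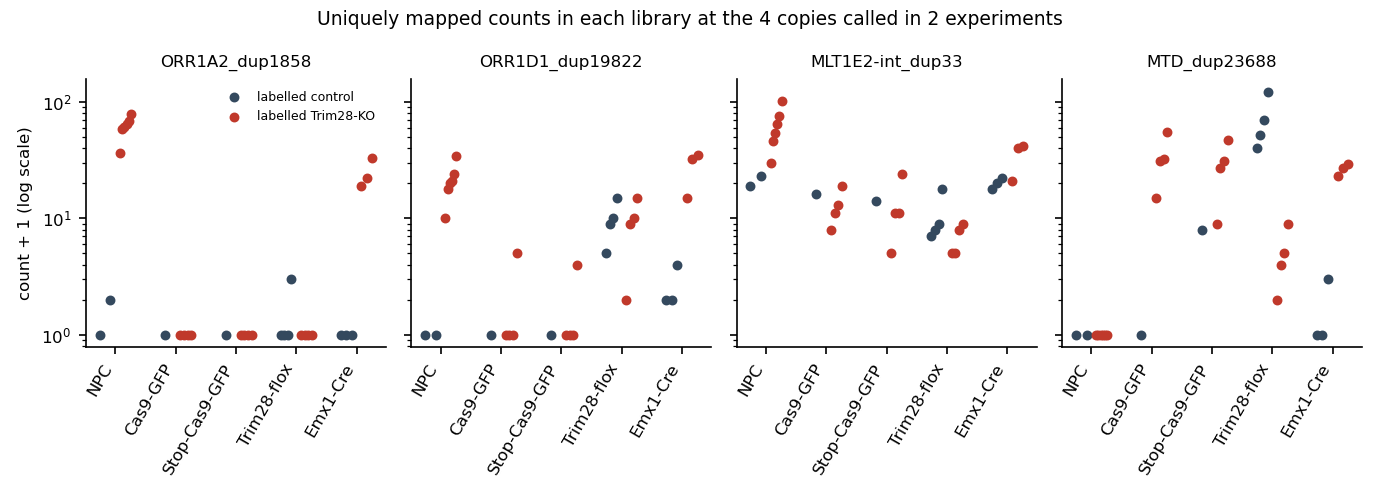
Uniquely mapped counts plus 1 (y axis, log scale) in every library of the 5 experiments (x axis) at the 4 copies called in 2 experiments. Red points are libraries labelled Trim28-KO and dark points libraries labelled control. ORR1A2_dup1858 has counts above 2 only in Trim28-KO NPCs and cortex, and MTD_dup23688 is higher in Trim28-KO of Cas9-GFP and Emx1-Cre and higher in the labelled control of Trim28-flox.

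MTD_dup23688, 6.11 kb from the transposase-derived gene Pgbd5, was called in the cortex and in Cas9-GFP. It had 22, 26 and 28 counts in the Trim28-KO cortex and 0, 0 and 2 in controls (ratio 52.5, interval 14 to 441; adjusted p = 6.14e-08). In Cas9-GFP it had 14, 30, 54 and 31 against 0 (at least 9.10-fold; adjusted p = 0.0364, lost with DESeq2), and in Stop-Cas9-GFP 8 to 46 against 7 (1.71 ± 1.10, adjusted p = 1.00). In Trim28-flox the order was opposite by label, with 1 to 8 counts in the libraries labelled Trim28-KO and 39 to 121 in those labelled control (-4.01 ± 0.52, adjusted p = 0.0735). Its neighbour MTEa_dup10102 behaved alike in the cortex (14, 22 and 12 against 3, 0 and 1; 3.91 ± 0.57) and in Trim28-flox (1 to 5 against 16 to 72; -4.08, adjusted p = 0.107). NPCs had 0 counts at MTD_dup23688.

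The Trim28-flox libraries were read at the other copies called in the cortex in the same way. Of the 34 copies higher in the Trim28-KO cortex 21 had at least 10 counts in Trim28-flox, and 16 of these had a lower mean in the libraries labelled Trim28-KO, the group with more Trim28 transcript. At 4 of them, MTD_dup23688, MTEa_dup10102, MTE2a_dup3933 and MTEa_dup5123, all libraries labelled Trim28-KO were below all labelled control, and at none were they all above. MTD_dup23688 and MTEa_dup10102 share a locus, as do MTE2a_dup3933 and MTEa_dup5123, so these are not 4 separate observations. The share of all copies whose groups did not overlap was not counted. Of all copies tested in Trim28-flox, 447 of 717 MLT, 1279 of 2083 MT and 1108 of 1804 ORR1 copies had a higher fitted level by label. The median log2 fold change over all ERVL-MaLR copies tested there was 0.11. By the test, 0 of 4604 ERVL-MaLR copies were called in Trim28-flox (edgeR), where 0.00644% of all TE copies were called lower and 0% higher. At an unadjusted p under 0.05 there were 76 copies (1.65%, and 1.52% of all TE copies), and DESeq2 called 5, all lower in the libraries labelled Trim28-KO. Without the library trim28fl_822, labelled control, edgeR called 3, and without trim28fl_823, labelled Trim28-KO, it called 1, again all lower.

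In Cas9-GFP 18 of 11306 copies tested (0.159%) were called higher, where 0.163% of all TE copies were, and 0 lower, where 0.00379% were. All 18 rested on a single control library with 0 to 3 counts, and DESeq2 called 0 copies. The count depended on which Trim28-KO library was left out, with 10 without that of g13, 8 without that of g3 and 135 (120 higher and 15 lower) without that of all 3 guides. The highest median shift of any experiment was also seen here, with a median log2 fold change of 0.72 over the ERVL-MaLR copies tested and 0.66 over all TE copies. On chromosome Y lay 2 of the 18, MTB_dup3541 (166, 162, 0 and 0 counts against 0) and ORR1A1-int_dup496. ERVL-MaLR copies of that chromosome had 479 and 414 counts in these 2 libraries and at most 1 in the other 3. With autosomal copies only, 15 were called. MTB_Mm_dup3430, opposite to an exon of the microtubule gene Eml1, had 51, 54, 60 and 52 against 0 (at least 15.7-fold; adjusted p = 0.000257) and MTD_dup15513 in an intron of Bud31 34, 32, 63 and 52 against 0 (at least 13.0-fold; adjusted p = 0.00238). MTD_dup25333 in Lrrc1 (at least 12.1-fold), MTC_dup22264 in Txndc16 (at least 11.3-fold), MTD_dup22631 in Nwd1 (at least 10.2-fold), MTE2a_dup2294 in Zfp335os (at least 9.49-fold) and MTD_dup12513 in Camta1 (at least 9.02-fold) followed. The 3 genes with a called copy in an exon and the 10 with one in an intron were all tested, and 0 were called. All 18 copies passed the filter in Stop-Cas9-GFP, where 9 had a higher and 9 a lower fitted level.

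In Stop-Cas9-GFP 0 of 11822 copies were called (edgeR), where 0.012% of all TE copies were called higher and 0.00092% lower. At an unadjusted p under 0.05 there were 214 (1.81%, and 1.89% of all TE copies), and DESeq2 called 0. Without the g13 library edgeR called 1, lower in Trim28-KO.

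Copies called in NPCs and cortex lay close to called copies of other TE families. In NPCs 12 of 18 (66.7%) had one within 10 kb, against 11 of the 2833 copies tested and not called (0.388%), and 8 had an ERVK and 9 an L1 copy within this distance. In the cortex 23 of 37 (62.2%) had one, against 1.08% of those not called. In Cas9-GFP 2 of 18 (11.1%) did, against 1.05%. Called copies also lay in groups, so that the 18 NPC copies formed 15 loci and the 37 cortex copies 28, when copies within 50 kb were joined. Neighbouring copies can share 1 transcript and are not independent.

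**Figure D5:**
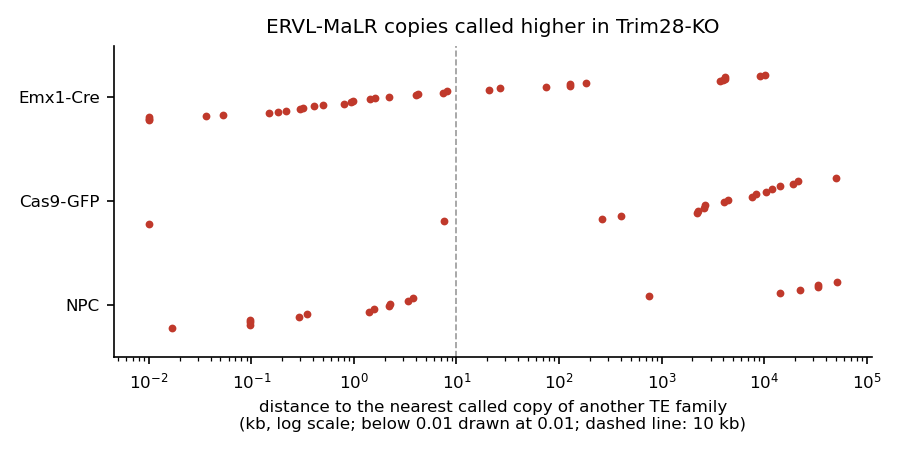
Distance in kb (x axis, log scale) from each ERVL-MaLR copy called higher in Trim28-KO to the nearest called copy of another TE family, in NPCs, Cas9-GFP and Emx1-Cre (rows). Points left of the dashed line lie within 10 kb, as 12 of 18 copies in NPCs do, while most Cas9-GFP copies lie beyond 100 kb.

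The strand of a copy did not separate its counts from those of a gene. In NPCs copies in exons on the opposite strand had 171 counts per kb and those on the same strand 110, and intron copies 9.28 and 6.66, against 1.87 between genes. Reads of a copy and of a transcript on either strand thus cannot be told apart. The order varied between experiments. In Trim28-flox exon copies had 245 on the opposite and 384 on the same strand. Intron copies had 21.9 on the opposite and 10.3 on the same strand in Cas9-GFP, and 23.6 and 11.2 in Stop-Cas9-GFP. Copies in exons on the same strand were 5439 of the 454918 copies and held 19.7% of ERVL-MaLR counts in NPCs, and those on the opposite strand were 5144 and held 25.5%.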

How the data were processed

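The authors deposited counts of genes and TE copies and estimated counts of TE subfamilies. Per the submitters' processing notes and the study's methods, reads were mapped with STAR 2.6.0 to GRCm38.p6, TE subfamilies were counted with TEtranscripts, which shares out multi-mapping reads and rounds the sums, and genes and individual TE copies were counted from uniquely mapped reads with featureCounts (Subread 1.6.3). In the deposited TE counts 6 columns match no sample and were not used, and the single-nucleus and CUT&RUN files were not used here.

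Members and gene lists were chosen with earlier results of these data known. Each experiment was fitted alone with edgeR 4.0.16 (R 4.3.3; quasi-likelihood test, filterByExpr, Benjamini-Hochberg over all features tested), and a feature was called where its adjusted p was under 0.05 and its log2 fold change beyond 0.5 up or down. Subfamilies were scaled by TMM factors of the TE subfamilies and copies by gene library sizes and TMM factors. Summed levels and ratios were compared with the exact permutation test over samples. A group at 0 was set to a floor of 3 counts per library, and intervals (95%, exact binomial) and floors cover counting error only. Positions came from GENCODE vM21, read with GenomicRanges 1.54.1, and sequences from the RefSeq genome GRCm38.p6. The text names the subfamilies with the 5 smallest p in each experiment and the most abundant one of each group, copies called in more than 1 experiment, and up to 10 called copies with the largest change in each direction whose groups did not overlap. One copy that this rule names is not reported here. Other copies were named after their values were seen. Alternatives were DESeq2 1.42.0, other size factors, filters and totals, copies outside exons, each library left out in turn and, chosen after seeing the data, autosomal copies only.

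The NPC culture numbers fall into 2 series, each with 1 control and 3 Trim28-KO cultures. Deviations of same-series cultures of different groups correlated in all 6 pairs (0.559 to 0.773 over genes, 0.306 to 0.378 over subfamilies, 0.413 to 0.555 over copies), so the series was used as a replicate block in an alternative fit. The sources do not say what the series stands for. Where the labels do not say that libraries of a group came from separate cultures or animals, p-values measure only the spread between these libraries. The scripts were tested on simulated data.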

Additional observations from a re-analysis of the deposited data

Results flagged for a closer look

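In the Trim28-flox experiment 1 library of each label lay far from the others of its group. The library trim28fl_822, labelled control, had 8572 ERVL-MaLR counts in CPM of the gene counts, where the other 3 labelled control had 5078 to 5243, and its log2 ratio of ERVL to ERVL-MaLR counts was -2.43, where the others had -2.25 to -2.22. The library trim28fl_823, labelled Trim28-KO, had an ERVL to ERVL-MaLR ratio of -2.47 (others -2.23 to -2.19), a B1 (Alu family) to ERVL-MaLR ratio of 0.71 (others 1.29 to 1.33) and a B2 to ERVL-MaLR ratio of 0.21 (others 0.66 to 0.70), all on the log2 scale. These 5 values were found in 39 tests, each of 1 measure in 1 group of 4 to 6 libraries. The gap to the nearest library was taken relative to the range of the group (Dixon's 95% value), and chance marks about 1 test in 20. All 5 values use the ERVL-MaLR counts, so those of 1 library are not separate findings.

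Among the 3 experiments with more than 1 control, called copies with at least 10 counts in an experiment were compared by label. At 5 of them every library labelled Trim28-KO lay on one side of those labelled control in 1 experiment and on the other side in another. The difference between the experiments was not tested, and the share of all copies that do so was not counted. Each was called in 1 of its 2 experiments, so its separation there comes with the choice of copies. Of the 5, 4 were lower by label in Trim28-flox and higher in the Emx1-Cre Trim28-KO cortex. In Trim28-flox the labelled Trim28-KO libraries held more Trim28 transcript. MTD_dup23688 had log2 fold changes of -4.01 and 5.46 and its neighbour MTEa_dup10102 -4.08 and 3.91. MTE2a_dup3933 had 0 to 3 against 7 to 30 counts in Trim28-flox (ratio of mean CPM 0.0822) and a log2 fold change of 4.78 in the cortex. MTEa_dup5123, at the same locus, had 0 to 2 against 7 to 11 (ratio of mean CPM 0.0605) and 4.55. MTE2b_dup4396, in an exon of Gbp9, was higher in Trim28-KO NPCs (22 to 55 against 12 to 13 counts, log2 fold change 1.81) and had 7 to 10 against 12 to 29 counts in the cortex (-0.86, adjusted p = 0.458, edgeR). Against the single control of Cas9-GFP or Stop-Cas9-GFP, 3 more copies called higher in 1 experiment had all Trim28-KO libraries below in another. They were MLT1J_dup2411 (called in NPCs, below in Stop-Cas9-GFP), MTC_dup19634 (called in the cortex, below in Stop-Cas9-GFP) and ORR1A1-int_dup809 (called in Cas9-GFP, below in the cortex). Of the 34 copies higher in the cortex, 14 had at least 10 counts in Cas9-GFP, and the Trim28-KO mean was higher at 12 and lower at 2. In Stop-Cas9-GFP 16 had such counts, with a higher mean at 14 and a lower one at 2. The median log2 fold change over all ERVL-MaLR copies tested was also positive there (0.72 and 0.45).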

How the results depend on the processing

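Of 67 values for the counts of calls, summed levels and ratios under other processing, 52 kept their direction and their side of the threshold or stayed within 1.5 times. Called subfamilies in NPCs went from 0 to 1 with DESeq2 and with gene library sizes, and those in Cas9-GFP from 0 to 3 with gene library sizes. Called copies became 28 (NPCs), 0 (Cas9-GFP) and 5 (Trim28-flox) with DESeq2, 3 (Trim28-flox) and 98 (Emx1-Cre) with a minimum of 10 counts in place of filterByExpr, and 22 (Emx1-Cre) among copies outside exons, a smaller set. With the series of culture numbers as a replicate block, copies called in NPCs became 33, and 0 subfamilies were called. Over total TE counts the summed difference turned to -0.0618 in NPCs and -0.0249 in Stop-Cas9-GFP. Over uniquely mapped copies the ERVK ratio turned to -0.0216 in Cas9-GFP and -0.0472 in Stop-Cas9-GFP, and in NPCs it was 0.10 with p = 0.0357 (exact permutation test).

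When each library was omitted in turn, called subfamilies ranged from 0 to 1 in NPCs (1 without npc_ko_g13_851), and called copies from 6 to 24 in NPCs, 8 to 135 in Cas9-GFP, 0 to 1 in Stop-Cas9-GFP, 0 to 3 in Trim28-flox and 37 to 50 in Emx1-Cre. In NPCs 7 and 6 copies were called without npc_ctrl_842 and npc_ctrl_867, where the lone control is assumed to vary like the other libraries. The summed difference ranged from 0.20 to 0.29 in NPCs, 0.35 to 0.39 in Cas9-GFP, -0.0602 to 0.0762 in Stop-Cas9-GFP (lowest without the g13 library), -0.0459 to 0.26 in Trim28-flox (lowest without trim28fl_823) and -0.15 to 0.0546 in Emx1-Cre (highest without Trim28-KO 76). The ERVK ratio ranged from 0.20 to 0.41 in NPCs (exact permutation p 0.0476 to 0.286), 0.03 to 0.06 in Cas9-GFP, 0.05 to 0.10 in Stop-Cas9-GFP, -0.0284 to 0.13 in Trim28-flox (below 0 without trim28fl_822, or trim28fl_794 at -0.0173 or trim28fl_796 at -0.0077) and 0.47 to 0.55 in Emx1-Cre. The cause was not tested for any of these. Of 385 values for named subfamilies and copies under other processing, 358 kept their call and direction and 16 lost the call. Of 457 without 1 library, 411 kept both and 43 lost the call. The named subfamilies were called in no main fit and could not lose a call, so all lost calls are those of copies.

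Depth limited the copies: of the 454918, 2851 (NPCs) and 1238 (Emx1-Cre) held enough counts to be tested. With 1 control in Cas9-GFP and Stop-Cas9-GFP, spread between controls could not be measured there, and the control's own level cannot be told apart from a response.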
